A study of Mus musculus with 22 samples.

Results

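CD8 T cells that carry the inhibitory receptor PD1 were compared with CD8 T cells that carry neither PD1 nor NK1.1, all sorted from mouse mammary tumours. The comparison rests on 4 of the 22 libraries of the study, chosen by their titles: 2 of the population named TCRb+CD8a+PD1+ (below, PD1+ cells) and 2 of TCRb+CD8a+PD1-NK1.1- (below, PD1-NK1.1- cells). Every mouse was a C57BL/6 female of 20 to 24 weeks with the PyMT transgene, which drives the polyoma middle T oncogene in the mammary gland, so no population comes from a tumour-free animal. Tumours were pooled, digested with collagenase and DNase, enriched on Percoll and stained, cells were sorted straight into Tri-Reagent, and cDNA was amplified with a SMARTer kit. The label of the PD1+ population does not say whether NK1.1+ cells were gated out. The labels do not tie replicate libraries to separate animals, so the p-values below measure the spread between libraries, which may be technical.

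PD1, the product of Pdcd1, is displayed by T cells after their antigen receptor is engaged, and it dampens further signalling when it binds its ligands. CD8 T cells that meet antigen over a long time, in chronic infection or in tumours, keep PD1 on the surface, gain further inhibitory receptors, and depend on the nuclear factor TOX. Naive and recirculating memory CD8 T cells instead express the factors TCF1 and LEF1 and the receptors CCR7 and S1PR1, which guide them into and out of lymphoid tissue. NK1.1, the product of Klrb1c, and the Ly49 receptors encoded by the Klra genes are typical of natural killer cells and of some T cells.

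The 4 libraries held 11530466 to 15824546 counts in genes and 16043 to 17194 genes with at least 1 count. Levels are given as CPM, counts per 1000000 after TMM scaling, in replicate 1 and then replicate 2, and 3 counts in a library correspond to 0.192 to 0.267 CPM. Differences are log2 fold changes, PD1+ minus PD1-NK1.1-, with their standard error. Adjusted p stands for the Benjamini-Hochberg value of a quasi-likelihood F test in edgeR over 15727 genes, with the spread shared over the 10 libraries of the first set of 5 populations, and a gene is called below 0.05. In sorted bulk samples, fewer cells that express a gene and less RNA of it per cell cannot be told apart.

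The sort labels matched the RNA. Pdcd1 stood at 1887 and 1517 CPM in PD1+ cells and at 92.3 and 105 CPM in PD1-NK1.1- cells, a difference of 4.11 ± 0.48 (adjusted p = 0.0112). Tox stood at 1079 and 952 CPM against 199.8 and 151 CPM, a difference of 2.53 ± 0.26 (adjusted p = 0.00622). For both genes the PD1+ libraries lay above all 20 other libraries of the study. Klrb1c, the gene of NK1.1, was at 3.14 and 0.801 CPM in PD1+ cells and at 12.7 and 22.1 CPM in PD1-NK1.1- cells, against 1105 and 1104 CPM in the TCRb+CD8a+NK1.1+ population of the same set.

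Markers of CD8 T cells were high on both sides, and each list of markers of other cells had a lower sum in all 4 libraries. The 6 CD8 T cell markers (Cd8a, Cd8b1, Cd3d, Cd3e, Cd3g, Trac) summed to 10745 and 10189 CPM in PD1+ cells and to 8099 and 8411 CPM in PD1-NK1.1- cells, and none was called. Cd4 was at 0 and 0.712 CPM in PD1+ cells and at 0 in both PD1-NK1.1- libraries. The 20 myeloid markers summed to 439 and 808 CPM against 272 and 437 CPM, with none at 0 in both libraries of a population, and the highest sum in the study was 48714 CPM. These markers leaned towards PD1+ cells, although 0 of 20 were called: 16 had a positive difference, the median was 1.24, and 9 had both PD1+ libraries above both PD1-NK1.1- libraries and 2 had them below, as 18.0% and 17.2% of all tested genes had. Cd74, the invariant chain gene of MHC class II, was at 148 and 281 CPM against 60.4 and 58.5 CPM (1.85 ± 0.52, adjusted p = 0.297) and was called higher when only the 6 CD8a+ libraries of the first set were fitted. H2-Ab1, an MHC class II gene, was at 8.46 and 42.8 CPM against 6.42 and 7.81 CPM (1.84 ± 0.79, adjusted p = 0.702). The part of myeloid cells in the differences below was not tested. The 11 B and plasma cell markers summed to 294 and 180.3 CPM against 545 and 318 CPM, most of it from Ighm (219 and 132 CPM against 505 and 278 CPM), while Pax5 and Mzb1 had 0 counts in all 4 libraries. The 17 epithelial markers summed to 241 and 376 CPM against 296 and 433 CPM, mostly Cdh1, and the milk protein genes Wap and Csn2 had 0 counts. The 12 stromal and endothelial markers summed to 24.9 and 34.7 CPM against 101 and 53.4 CPM, with Pdgfra, Pdgfrb and Lum at 0 in all 4.

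Of 15727 genes tested, 71 were called (0.451%), 29 of them higher in PD1+ cells (0.184%) and 42 lower (0.267%). Called higher in PD1+ cells were 3 inhibitory receptor genes, Pdcd1 of the sort among them, Tox, and 4 T-cell receptor gamma chain genes. Called lower were 3 genes of naive and memory factors, 4 of homing and tissue exit, 3 of cytokine receptors and 6 of NK receptors. All 71 called genes had non-overlapping libraries, as had 35.3% of all genes tested. The smallest called differences were 1.56 for Gpd2, a mitochondrial enzyme gene, and -1.77 for Adgrg5, an adhesion receptor gene, and the median over all tested genes was 0. Leaving out PD1+ replicate 1 gave 29 calls and PD1+ replicate 2 gave 14, and leaving out PD1-NK1.1- replicate 1 gave 26 and its replicate 2 gave 30. Those fits compare 1 library with 2 and test 17187 to 17253 genes, so a call lost in them need not mean a smaller difference. When only the 6 libraries of the 3 CD8a+ populations of the first set were fitted, 182 of 13551 genes were called (1.34%), 81 higher (0.598%) and 101 lower (0.745%), and these include 70 of the 71.

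**Figure D1:**
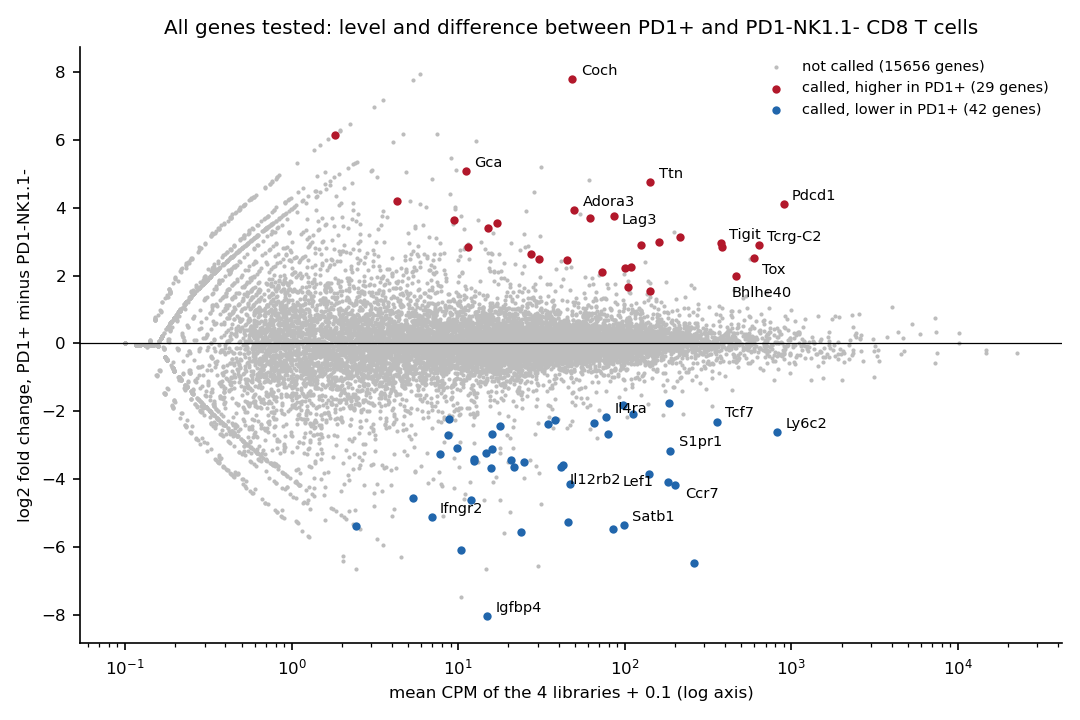
Each point is 1 of the 15727 genes tested, with its mean level over the 4 libraries (CPM + 0.1, log axis) on the x axis and its log2 fold change, PD1+ minus PD1-NK1.1-, on the y axis; genes with 0 counts in a population are drawn at their bound. The 29 red genes were called higher and the 42 blue genes lower in PD1+ cells, and called genes span levels from a few CPM to that of Pdcd1.

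The cells were sorted on PD1, so the call of Pdcd1 is set by the gate and is left out of the count of inhibitory receptor genes. Of the other 22 tested, Tigit and Lag3 were called higher and 0 lower, with 0.184% of all genes called higher. The median of the 22 was 0.21, and 10 had both PD1+ libraries above both PD1-NK1.1- libraries, while 5 had them below. Among all tested genes the shares were 18.0% above and 17.2% below. Tigit, whose product competes for ligands of the costimulator CD226, stood at 816 and 523 CPM in PD1+ cells and at 67.8 and 103 CPM in PD1-NK1.1- cells. The difference was 2.97 ± 0.41 (adjusted p = 0.0193), and both PD1+ libraries lay above all 20 others. Lag3, whose product binds MHC class II, stood at 129.5 and 189 CPM against 5.79 and 17.7 CPM, 13.5-fold higher (3.76 ± 0.61, adjusted p = 0.0318). Both of its PD1-NK1.1- libraries were low, replicate 1 more so, and the groups did not overlap.

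The call of Pdcd1 was lost without PD1-NK1.1- replicate 1 (adjusted p = 0.0756) or replicate 2 (0.0585). Tigit kept its call only without PD1+ replicate 2 (adjusted p = 0.0364) and reached 0.0585 to 0.139 in the other 3 fits, and Lag3 kept it only without PD1-NK1.1- replicate 2 (0.0497), with 0.0595 to 0.169 in the others.

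The starts of Pdcd1 and Tigit are shown because their RNA rose together and both windows hold the letters GGAAA, read by NFAT, a family of factors that T-cell receptor signalling brings into the nucleus. The windows run from 250 bases before to 50 bases after the start of the gene, are taken from RefSeq on GRCm38.p6, and are written along the gene's strand, the minus strand in both. Capitals mark GGAAA on the other strand, which reads TTTCC.
Pdcd1, chr1:94052504-94052803: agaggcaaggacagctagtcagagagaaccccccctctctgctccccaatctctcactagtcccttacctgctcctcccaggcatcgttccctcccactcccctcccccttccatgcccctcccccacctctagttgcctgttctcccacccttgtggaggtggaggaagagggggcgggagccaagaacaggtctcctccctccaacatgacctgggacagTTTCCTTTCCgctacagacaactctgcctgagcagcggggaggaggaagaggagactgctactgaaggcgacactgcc
Tigit, chr16:43664135-43664434: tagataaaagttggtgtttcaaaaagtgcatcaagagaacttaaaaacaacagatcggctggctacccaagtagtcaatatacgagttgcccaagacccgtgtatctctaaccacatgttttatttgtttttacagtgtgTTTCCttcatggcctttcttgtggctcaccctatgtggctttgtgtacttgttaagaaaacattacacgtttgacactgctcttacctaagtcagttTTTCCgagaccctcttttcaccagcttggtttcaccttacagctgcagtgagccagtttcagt
Each window holds 2 matches, side by side in Pdcd1 and apart in Tigit. Letters this short are common: on either strand they occur in 61.3% of the 32851 windows of the table, in 21 of 26 windows of genes called higher (80.8%) and in 38 of 54 windows of genes called lower (70.4%). A match is a description of the letters and not evidence of binding.

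Further inhibitory receptor genes had higher values in PD1+ cells without passing the test. Havcr2, the gene of TIM3, was at 105 and 96.3 CPM against 7.28 and 6.91 CPM (3.83 ± 1.14, adjusted p = 0.331), and its adjusted p ran from 4.95e-09 to 0.976 over the alternatives. Ctla4 was at 182 and 138 CPM against 30.2 and 47.1 CPM (2.05 ± 0.37, adjusted p = 0.052, range 1.93e-05 to 0.435). Replicates of Havcr2 lay close together on each side and the groups did not overlap. Both genes were called higher when only the 6 CD8a+ libraries were fitted, which makes 4 of the 22 higher and 0 lower there. In that fit 0.598% of all genes tested were called higher and 0.745% lower. Entpd1, the gene of CD39, was at 144 and 174 CPM against 41 and 71.5 CPM (1.50 ± 0.34, adjusted p = 0.131). Cd160 was at 319 and 363 CPM against 227 and 453 CPM, with overlapping libraries (0.01 ± 0.33, adjusted p = 1).

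Of 22 factor genes linked to chronic stimulation, 2 were called higher, Tox and Bhlhe40, and 0 lower, while 0.184% of all genes were called higher. The group median was 1.00. Tox was called in each of the 4 fits that left out a library, at adjusted p 0.0232 to 0.046. Bhlhe40, a repressor that rises after T-cell receptor signals, stood at 761 and 726 CPM in PD1+ cells and at 149.7 and 223 CPM in PD1-NK1.1- cells (1.99 ± 0.29, adjusted p = 0.0205). Its libraries did not overlap, and its call was lost in each of those 4 fits (adjusted p 0.0601 to 0.181). Nr4a2, an orphan nuclear receptor gene induced by T-cell receptor signals, was at 349.8 and 369.7 CPM against 22.1 and 52.1 CPM and did not pass the test (3.28 ± 0.70, adjusted p = 0.1, range 4.97e-14 to 0.625). Its relative Nr4a1 was at 204 and 257 CPM against 115 and 277 CPM, with overlapping libraries (0.23 ± 0.43, adjusted p = 1). With the 6 CD8a+ libraries alone, 8 of 21 were higher and 0 lower, and Tox2, Nr4a2, Ikzf2, Prdm1, Eomes and Maf joined the called genes. Over all genes of that fit 0.598% were called higher and 0.745% lower. Prdm1, the gene of BLIMP1, was at 59 and 75.9 CPM against 16.8 and 19.1 CPM (1.91 ± 0.54, adjusted p = 0.297). Eomes, a T-box factor gene, was at 124 and 134 CPM against 44.5 and 49.7 CPM (1.45 ± 0.32, adjusted p = 0.113). Tbx21, the T-bet gene, was at 30.1 and 44.2 CPM against 19.1 and 38.1 CPM, with overlapping libraries (0.38 ± 0.52, adjusted p = 1).

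Several genes outside these groups rose more than Tox. Coch, which encodes a secreted protein known from the inner ear and lymph nodes, was at 130.4 and 62.1 CPM in PD1+ cells and at 0.861 and 0 CPM in PD1-NK1.1- cells (7.79 ± 1.12, adjusted p = 0.0242). Gca, the gene of the calcium-binding protein grancalcin, was at 21.3 and 21.4 CPM against 0.939 and 0.297 CPM (5.10 ± 0.63, adjusted p = 0.0122). Ttn, the gene of the giant muscle protein titin, was at 394 and 155 CPM against 16 and 4.31 CPM (4.76 ± 0.80, adjusted p = 0.0363). In Coch and Ttn PD1+ replicate 1 stood well above replicate 2, the Gca replicates were nearly equal, and none of the 3 genes overlapped between groups. Coch lost its call without PD1+ replicate 1 (adjusted p = 0.16) or 2 (0.0678), Gca without PD1+ replicate 2 (0.0514) or PD1-NK1.1- replicate 2 (0.0585), and Ttn lost it when any of the 4 libraries was left out (adjusted p 0.0514 to 0.172).

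Receptor and signalling genes were also among the rises. Adora3, the gene of the adenosine A3 receptor, was at 96.5 and 90.3 CPM in PD1+ cells and at 3.21 and 8.92 CPM in PD1-NK1.1- cells (3.94 ± 0.69, adjusted p = 0.0475). It was the only called gene of 10 adenosine genes, a group with a median of -0.38 with genes at 0 counts placed at their bound. Rgs16, a brake on G-protein signalling, was at 129 and 100 CPM against 10.5 and 7.14 CPM (3.70 ± 0.45, adjusted p = 0.0118). Adgrg1, the gene of the adhesion receptor GPR56, was at 256 and 309.7 CPM against 24.2 and 47.3 CPM (2.98 ± 0.37, adjusted p = 0.0122). In all 3 genes the replicates of PD1+ cells were close to each other relative to the distance between groups. Adora3 lost its call when any of the 4 libraries was left out (adjusted p 0.0918 to 0.307), Rgs16 without PD1-NK1.1- replicate 1 (0.0574) or 2 (0.0763), and Adgrg1 without PD1+ replicate 2 (0.0594) or PD1-NK1.1- replicate 1 (0.0616).

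Map2, the gene of a microtubule-binding protein best known in neurons, was at 35.6 and 26.9 CPM in PD1+ cells against 2.66 and 2.68 CPM (3.54 ± 0.51, adjusted p = 0.0205). Cybb, which encodes the catalytic subunit of the phagocyte NADPH oxidase, was at 27.3 and 27.5 CPM against 2.43 and 2.68 CPM (3.42 ± 0.44, adjusted p = 0.0128). Cybb is known for its expression in myeloid cells. Myeloid markers summed to 439 and 808 CPM in PD1+ cells and to 272 and 437 CPM in PD1-NK1.1- cells. The part of myeloid cells in the differences of Map2 and Cybb was not tested. Both genes lost their calls when any of the 4 libraries was left out, at adjusted p 0.115 to 0.165 for Map2 and 0.0627 to 0.13 for Cybb. Vsig10, a membrane protein gene, had 94 counts in the PD1+ libraries and 1 in the PD1-NK1.1- libraries, a ratio of 91.9 with a 95% counting interval of 16.1 to 3668 (adjusted p = 0.0492). It lost its call when any of the 4 libraries was left out (0.162 to 0.266) and was the 1 called gene lost with the 6 CD8a+ libraries alone (0.0631). Also called higher were Adam8, Cd200r2, Gpd2, Osgin1, Plscr4, Serpinb6a, Tmcc3, Trps1, the predicted gene Gm11802, 1 entry without a current symbol, and the gamma chain genes described below.

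**Figure D2:**
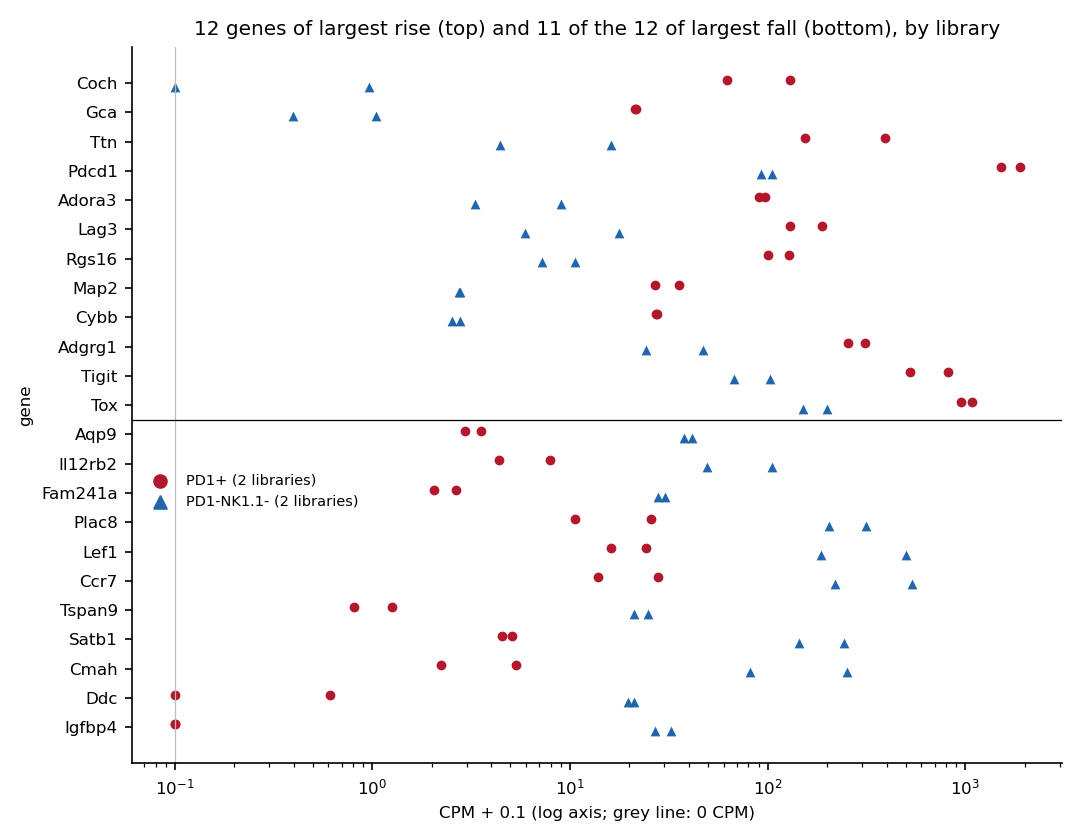
Levels of the 12 genes of largest rise (above the line) and 11 of the 12 of largest fall (below it) among called genes that reached 20 CPM in their higher population; the x axis is CPM + 0.1 on a log axis, red circles are the 2 PD1+ libraries and blue triangles the 2 PD1-NK1.1- libraries. The genes were also chosen for libraries that do not overlap, so the 2 colours are apart in all 23 by selection. Igfbp4 lies at 0 in both PD1+ libraries.

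Of 20 naive and memory factor genes, Satb1, Lef1 and Tcf7 fell in PD1+ cells, so 3 were called lower and 0 higher, while 0.267% of all genes were called lower. The median of the group was -1.83, against 0 over all genes. In 15 of the 20 both PD1+ libraries lay below both PD1-NK1.1- libraries, while 5 overlapped and 0 had them above. Among all tested genes the shares were 17.2% below and 18.0% above. Satb1, the gene of a chromatin organiser of developing and naive T cells, was at 5 and 4.45 CPM in PD1+ cells and at 243 and 143 CPM in PD1-NK1.1- cells, 40.7-fold lower (-5.35 ± 0.54, adjusted p = 0.00622). Lef1 was at 24.3 and 16.1 CPM against 501 and 187 CPM (-4.09 ± 0.52, adjusted p = 0.0128). Tcf7, the gene of TCF1, was at 147 and 93.7 CPM against 726 and 461 CPM (-2.30 ± 0.34, adjusted p = 0.0212). In all 3 genes PD1-NK1.1- replicate 1 was the highest of the 4 libraries, and PD1+ replicate 1 was above PD1+ replicate 2.

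Satb1 kept its call in each fit without a library (adjusted p 0.012 to 0.0413). Lef1 lost it without PD1+ replicate 1 (0.0534) or 2 (0.115), and Tcf7 lost it without PD1+ replicate 1 (0.0664) or 2 (0.217) or PD1-NK1.1- replicate 1 (0.133). With the 6 CD8a+ libraries alone 8 of 20 were lower and 0 higher, and Klf2, Klf3, Klf7, Dapl1 and Tdrp joined them. Over all genes of that fit 0.745% were called lower and 0.598% higher. Klf2, the gene of a factor that drives expression of S1pr1, was at 10.8 and 14.9 CPM against 49.2 and 65.6 CPM (-2.16 ± 0.67, adjusted p = 0.357). Bach2, a repressor gene of naive and memory cells, was at 5.9 and 2.49 CPM against 36.7 and 17.5 CPM (-2.68 ± 0.78, adjusted p = 0.323). Id3, by contrast, was at 46.8 and 87.1 CPM against 47 and 88.4 CPM, with higher values in replicate 2 on both sides (-0.02 ± 0.43, adjusted p = 1).

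Of 24 genes of homing and tissue exit, 4 were called lower and 0 higher, while 0.267% of all genes were called lower. The group median was -1.09. Both PD1+ libraries lay below both PD1-NK1.1- libraries in 14 of the 24 and above them in 6, S1pr2, Itga4, Cd44, Rgs1, Cxcr6 and Gpr183. Among all tested genes the shares were 17.2% below and 18.0% above. Ccr7, whose product follows chemokines into lymph nodes, was at 27.8 and 13.7 CPM in PD1+ cells and at 538 and 220.0 CPM in PD1-NK1.1- cells (-4.19 ± 0.60, adjusted p = 0.0205). S1pr1, whose product senses sphingosine 1-phosphate and lets cells leave tissue, was at 46.5 and 28.9 CPM against 397 and 278 CPM (-3.16 ± 0.48, adjusted p = 0.0229). Replicate 1 was above replicate 2 on both sides for both genes. Ly6c2, a surface protein gene of circulating and memory T cells, ran the other way in PD1-NK1.1- cells, at 242 and 217 CPM against 1243 and 1580.4 CPM (-2.62 ± 0.31, adjusted p = 0.0113).

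Ccr7 kept its call only without PD1-NK1.1- replicate 2 (adjusted p = 0.0225, and 0.054 to 0.164 in the other fits), Ly6c2 without either PD1-NK1.1- library (0.0324 and 0.046, and 0.0627 and 0.113 without PD1+ replicate 1 and 2), and S1pr1 in none (0.0565 to 0.209). Of the group's other members, Ccr9, a gut-homing receptor gene, was at 1.09 and 0.089 CPM against 104 and 14.3 CPM and was not called (-6.56 ± 1.29, adjusted p = 0.105). Itgb7, an integrin gene of gut homing, was at 70.6 and 99.2 CPM against 281 and 441 CPM (-2.09 ± 0.39, adjusted p = 0.0614), and it and Klf2 were called lower with the 6 CD8a+ libraries alone. Cd69, Itgae and Cxcr6, genes known from tissue-resident T cells, did not pass the test. Cd69 was at 742 and 887 CPM against 634 and 978 CPM, with overlapping libraries (0.02 ± 0.31, adjusted p = 1), Itgae, the gene of CD103, at 181 and 261 CPM against 389 and 508 CPM (-1.02 ± 0.34, adjusted p = 0.431), and Cxcr6 at 3058 and 3562 CPM against 1368 and 2241 CPM (0.88 ± 0.27, adjusted p = 0.373).

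Cytokine receptor genes were called lower in 3 of 29 and higher in 0, while 0.267% of all genes were called lower. The group median was -0.40. Il12rb2, a chain of the interleukin 12 receptor, was at 7.82 and 4.27 CPM in PD1+ cells and at 49.1 and 105 CPM in PD1-NK1.1- cells (-3.66 ± 0.55, adjusted p = 0.0223). Ifngr2, the signalling chain of the interferon gamma receptor, was at 0.385 and 0.356 CPM against 17.7 and 8.85 CPM (-5.12 ± 0.70, adjusted p = 0.0205), while the other chain, Ifngr1, had a difference of 0.00. Il4ra, the interleukin 4 receptor gene, was at 27 and 29 CPM against 131 and 123 CPM (-2.18 ± 0.35, adjusted p = 0.0299). Il12rb2 was higher in PD1-NK1.1- replicate 2, Ifngr2 in replicate 1, and the Il4ra replicates were nearly equal. Il12rb2 kept its call only without PD1-NK1.1- replicate 1 (adjusted p = 0.0338, others 0.0705 to 0.183), Ifngr2 only without PD1-NK1.1- replicate 2 (0.0439, others 0.105 to 0.183), and Il4ra in none (0.112 to 0.241). Il7r, the gene of the interleukin 7 receptor of naive and memory cells, was at 143 and 148 CPM against 577 and 463 CPM and did not pass the test (-1.84 ± 0.47, adjusted p = 0.196).

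Among other genes of large fall, Igfbp4, which encodes a binding protein of insulin-like growth factors, had 0 counts in both PD1+ libraries and 32.4 and 26.8 CPM in PD1-NK1.1- cells. With 3 counts over the PD1+ libraries as the floor it was at least 265-fold lower (adjusted p = 0.00882). Pheta2, an endosomal protein gene, also had 0 counts in PD1+ cells against 4.85 and 4.54 CPM, at least 42.0-fold lower (adjusted p = 0.0205), and lost its call when any of the 4 libraries was left out (0.0565 to 0.133). Both floors cover counting error alone, as the reads carry no molecular identifiers that would separate PCR copies. Ddc, the gene of aromatic amino acid decarboxylase, was at 0.513 and 0 CPM against 19.6 and 20.9 CPM (-6.11 ± 0.79, adjusted p = 0.0128). Cmah, an enzyme gene of sialic acid synthesis, was at 5.26 and 2.14 CPM against 252 and 81.2 CPM (-5.47 ± 0.83, adjusted p = 0.0239), and Tspan9, a tetraspanin gene, at 0.705 and 1.16 CPM against 24.8 and 20.9 CPM (-4.63 ± 0.40, adjusted p = 0.00622). Igfbp4, Ddc and Tspan9 kept their calls in all 4 fits without a library, at adjusted p up to 0.0358, 0.0439 and 0.0279. Cmah, whose PD1-NK1.1- libraries lay far apart, kept its call only without PD1-NK1.1- replicate 2 (0.0288, others 0.0733 to 0.178).

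Plac8, a gene of effector and memory lymphocytes, was at 25.6 and 10.5 CPM against 205 and 316 CPM (-3.85 ± 0.48, adjusted p = 0.0122) and lost its call only without PD1+ replicate 2 (0.0599). Aqp9, the gene of a water and glycerol channel of memory T cells, was at 3.46 and 2.85 CPM against 41.5 and 37.8 CPM (-3.64 ± 0.44, adjusted p = 0.0118) and kept its call only without PD1-NK1.1- replicate 2 (0.046, others 0.0518 to 0.115). Fam241a was at 2.56 and 1.96 CPM against 30.2 and 27.7 CPM (-3.67 ± 0.55, adjusted p = 0.0214) and kept its call in none of these fits (0.125 to 0.242). P2rx7, the gene of an ATP-gated channel, was at 2.76 and 1.25 CPM against 14.8 and 30.4 CPM (-3.47 ± 0.56, adjusted p = 0.031) and kept its call only without PD1-NK1.1- replicate 1 (0.046, others 0.0826 to 0.243). Cd79b, which encodes a chain of the B-cell receptor complex, was at 2.05 and 3.56 CPM against 29.9 and 23 CPM (-3.24 ± 0.53, adjusted p = 0.0318, and 0.0796 to 0.257 in those 4 fits). Its partner Cd79a was at 0.0641 and 0.712 CPM against 0.0782 and 0.0744 CPM. Also called lower outside the NK receptors were Adgrg5, Clnk, Cxxc5, Dennd2d, F2rl1, Icam2, Ifitm1, Pag1, Rflnb, Rgs10, Selenop, Trio, 1700025G04Rik and the predicted genes Gm14085 and Gm45837.

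NK receptor genes were called lower in PD1+ cells in 6 of 28 tested and higher in 0, while 0.267% of all genes were called lower. The median of the 28 was -1.26 with genes at 0 counts placed at their bound. The 6 were Klrb1c, whose product was gated out of the PD1-NK1.1- population (-3.09 ± 0.50, adjusted p = 0.031), Klrb1f, Klra1, Klra6, Klra7 and Fcer1g, an adaptor of activating receptors. Klra7 was at 10.2 and 2.67 CPM against 52.7 and 105 CPM (-3.60 ± 0.57, adjusted p = 0.0262), Klra6 at 4.68 and 2.23 CPM against 21.5 and 54.2 CPM (-3.43 ± 0.50, adjusted p = 0.0205) and Klra1 at 2.95 and 1.25 CPM against 19.2 and 26.1 CPM (-3.40 ± 0.38, adjusted p = 0.00951). PD1-NK1.1- replicate 2 was the higher library for all 3, opposite to the order in Ccr7 and Lef1. The pseudogene Klra13-ps, outside the list, was at 3.4 and 1.07 CPM against 88.1 and 90.2 CPM (-5.28 ± 0.54, adjusted p = 0.00622). Klra genes are close copies of each other, and reads may have been shared or lost among them, so their single values are uncertain.

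Both populations were low in NK receptor RNA beside the TCRb+CD8a+NK1.1+ population, in which Klra7 stood at 911 and 1074 CPM. The 10 NK cell markers summed to 195 and 162 CPM in PD1+ cells and to 252 and 375 CPM in PD1-NK1.1- cells, and to 5025 and 4810 CPM in the TCRb+CD8a+NK1.1+ population. Of these 10 markers, 3 were called lower in PD1+ cells. A positive difference was found in 2, Eomes (1.45 ± 0.32, adjusted p = 0.113) and Klri2 (0.89 ± 0.50, adjusted p = 0.904). Eomes made up most of the PD1+ sums. Ncr1, Klra4 and Klra8 were the 3 markers with 0 counts in both PD1+ libraries, and had at most 2.6 CPM in PD1-NK1.1- cells. The part of NK1.1+ cells in the PD1-NK1.1- libraries was not tested. Klra1 and Klra13-ps kept their calls in each fit without a library (adjusted p up to 0.0408 and 0.0279), while Klra6 and Klra7 kept theirs only without PD1+ replicate 1 (0.0484 and 0.0147) or PD1-NK1.1- replicate 1 (0.0277 and 0.0338). Klrb1c was called in the same pair of fits (0.0147 and, at the threshold, 0.049996), Fcer1g only without PD1+ replicate 1 (0.0304) and Klrb1f in none (0.0542 to 0.235).

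The start of Klra6 and the second of 2 starts of Klra7 are printed because both genes fell and both windows hold CTTTGAT, letters read by TCF1 and LEF1, whose genes fell too. They come from RefSeq on GRCm38.p6 and are written along the genes' minus strand, with CTTTGAT in capitals.
Klra6, chr6:130026905-130027204: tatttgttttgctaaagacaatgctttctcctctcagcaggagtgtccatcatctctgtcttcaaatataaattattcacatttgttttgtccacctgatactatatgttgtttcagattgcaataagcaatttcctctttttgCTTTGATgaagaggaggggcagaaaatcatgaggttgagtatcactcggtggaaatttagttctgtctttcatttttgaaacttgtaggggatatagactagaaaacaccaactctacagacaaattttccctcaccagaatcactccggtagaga
Klra7, chr6:130233273-130233572: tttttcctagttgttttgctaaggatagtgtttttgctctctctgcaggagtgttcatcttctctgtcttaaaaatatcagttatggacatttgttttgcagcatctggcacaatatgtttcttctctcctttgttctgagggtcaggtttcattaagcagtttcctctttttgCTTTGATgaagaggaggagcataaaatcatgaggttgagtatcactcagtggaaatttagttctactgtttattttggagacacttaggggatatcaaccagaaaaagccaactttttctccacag
The windows share 231 identical bases over 333 aligned columns (69.4%), the match lies in a stretch that both share, and the start of Klra1 and the other start of Klra7 hold no match. On either strand CTTTGAT occurs in 3.73% of all windows of the table, in 1 of 26 windows of genes called higher (3.85%) and in 3 of 54 windows of genes called lower (5.56%). Here too a match describes the letters and is not evidence of binding. A link between the falls of Tcf7 and Lef1 and those of the Klra genes was not tested.

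Some genes of the T-cell receptor gamma locus rose in PD1+ cells, in populations sorted for the beta chain of the alpha-beta receptor. Tcrg-C2, a gamma constant gene, was at 1053 and 1203 CPM in PD1+ cells and at 113 and 188 CPM in PD1-NK1.1- cells (2.90 ± 0.31, adjusted p = 0.00786). Tcrg-C4 was at 416 and 352 CPM against 39.2 and 47.3 CPM (3.15 ± 0.30, adjusted p = 0.00622), and the variable gene Trgv2 at 574 and 769.8 CPM against 70.7 and 118 CPM (2.84 ± 0.38, adjusted p = 0.015). Tcrg-V3 was also called higher, which makes 4 of 11 genes of the locus higher and 0 lower. Among all tested genes 0.184% were called higher and 0.267% lower. The group was put together after its values had been seen, so its count cannot serve as separate evidence. Tcrg-C2 and Trgv2 lay above all 20 other libraries in both PD1+ libraries, the TCRgd+ populations included. Some of the gamma constant genes are close copies of each other, and reads may have been shared among those.

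Not every gene of the locus moved that way. Tcrg-V4 was at 1.35 and 0.445 CPM in PD1+ cells and at 8.37 and 8.33 CPM in PD1-NK1.1- cells (-3.16 ± 0.57, adjusted p = 0.0542, range 2.63e-07 to 0.499), and it was called lower with the 6 CD8a+ libraries alone. Tcrg-C1 was at 123 and 75.5 CPM against 26.7 and 43.1 CPM and was not called (1.51 ± 0.40, adjusted p = 0.251). Variable and joining segments of the delta chain, which pairs with gamma, were low in all 4 libraries. The 7 genes summed to 0.192 and 9.79 CPM in PD1+ cells and to 5.40 and 7.51 CPM in PD1-NK1.1- cells, against up to 551 CPM elsewhere in the study. The delta constant gene Trdc was not among them or among the genes tested, so its RNA is not described here. Of the gamma-delta T cell markers, Sox13 had 0 counts in all 4 libraries, and 6 of them summed to 3.33 and 0.890 CPM against 5.16 and 8.85 CPM. Gamma genes can be rearranged and transcribed in T cells with an alpha-beta receptor. Which cells the gamma RNA of these libraries came from was not tested. Tcrg-C2 and Tcrg-C4 kept their calls in each fit without a library (adjusted p up to 0.0358 and 0.0338), Trgv2 without PD1+ replicate 1 (0.0279) or PD1-NK1.1- replicate 2 (0.0486) but not in the others (0.079 and 0.13), and Tcrg-V3 in none (0.0796 to 0.201).

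**Figure D3:**
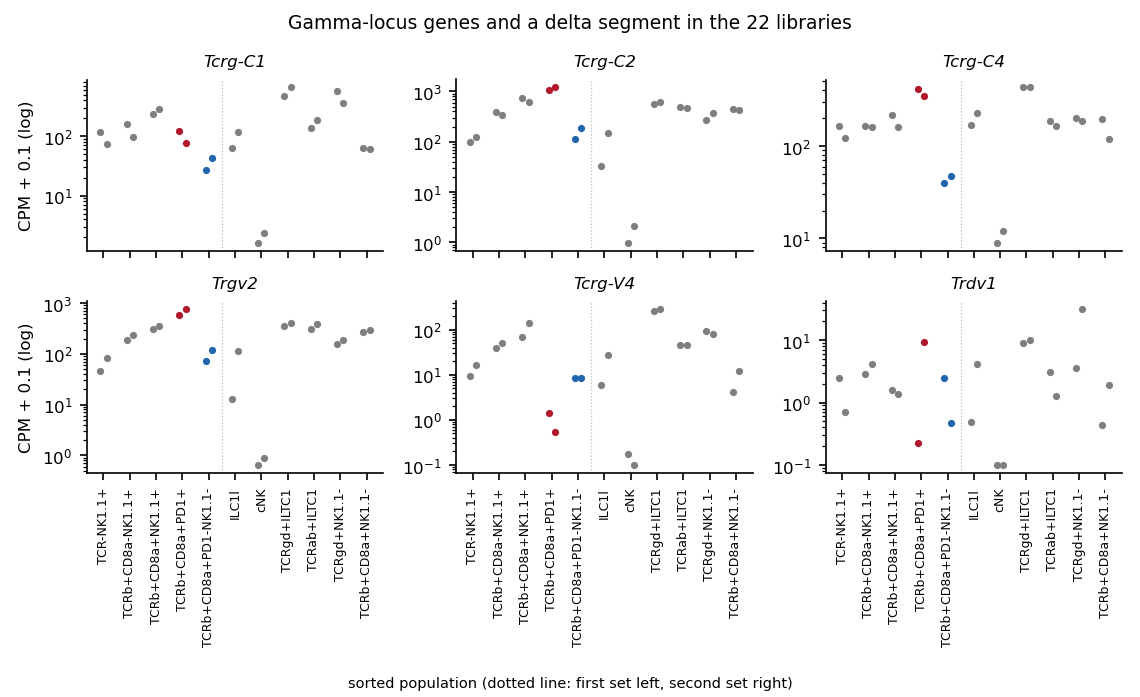
Levels (CPM + 0.1, log axis) of 5 genes of the gamma locus and of Trdv1, a delta segment, in the 11 sorted populations with 2 points each, PD1+ cells in red and PD1-NK1.1- cells in blue. Tcrg-C2, Tcrg-C4 and Trgv2 are higher in red than in blue, Tcrg-V4 is lower, and the 2 red points of Trdv1 lie on both sides of the blue ones.

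In several gene groups no member was called. Among 20 cytotoxic effector genes, with a median of 0.53, Gzmk came nearest, at 900.5 and 1011 CPM in PD1+ cells against 137 and 204 CPM (2.48 ± 0.45, adjusted p = 0.052, range 2.26e-09 to 0.377). Gzmb, another granzyme gene, had lower values, at 1285 and 749.7 CPM against 1615 and 2522 CPM (-1.02 ± 0.39, adjusted p = 0.584), and Prf1, the perforin gene, was at 233 and 187 CPM against 170.0 and 114 CPM (0.56 ± 0.33, adjusted p = 0.937). Gzmk and Nkg7 were called higher with the 6 CD8a+ libraries alone. The 22 cytokine and chemokine genes had a median of 0.80. Ccl3, a chemokine gene, was at 261 and 184 CPM against 24.5 and 60.2 CPM (2.40 ± 0.47, adjusted p = 0.0713), and Tnfsf4, the gene of OX40 ligand, at 61.5 and 46.8 CPM against 1.96 and 2.9 CPM (4.47 ± 0.87, adjusted p = 0.0696). Both were called higher with the 6 CD8a+ libraries alone. Ifng was at 311 and 353 CPM against 96.2 and 159 CPM (1.38 ± 0.33, adjusted p = 0.156), and Tnf at 11.5 and 13.8 CPM against 11.5 and 14.3 CPM (-0.03 ± 0.44, adjusted p = 1).

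Of 16 chemokine receptor genes, with a median of 0.01, Ccr7 was the only called gene. The groups of signalling, metabolic and proliferation genes had 0 calls each. The medians were 0.02 over 24 T-cell receptor signalling genes, -0.07 over 17 costimulator genes, 0.04 over 22 genes of glycolysis and hypoxia, -0.06 over 20 genes of mitochondrial respiration, 0.23 over 24 interferon response genes, 0.17 over 21 immediate early genes and 0.53 over 22 cell cycle genes. Of the cell cycle genes 18 had a positive difference, and 7 had both PD1+ libraries above both PD1-NK1.1- libraries and 1 had them below. Among all tested genes the shares were 18.0% above and 17.2% below. The 17 survival and death genes had 1 call and a median of 0.20. Mki67, a marker of cycling cells, was at 183 and 128 CPM against 82.6 and 132 CPM, with overlapping libraries (0.54 ± 0.33, adjusted p = 0.956). Cd226, the costimulator gene, was at 53.1 and 73.9 CPM against 236 and 315 CPM and did not pass the test (-2.12 ± 0.42, adjusted p = 0.0727), but was called lower with the 6 CD8a+ libraries alone.

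**Figure D4:**
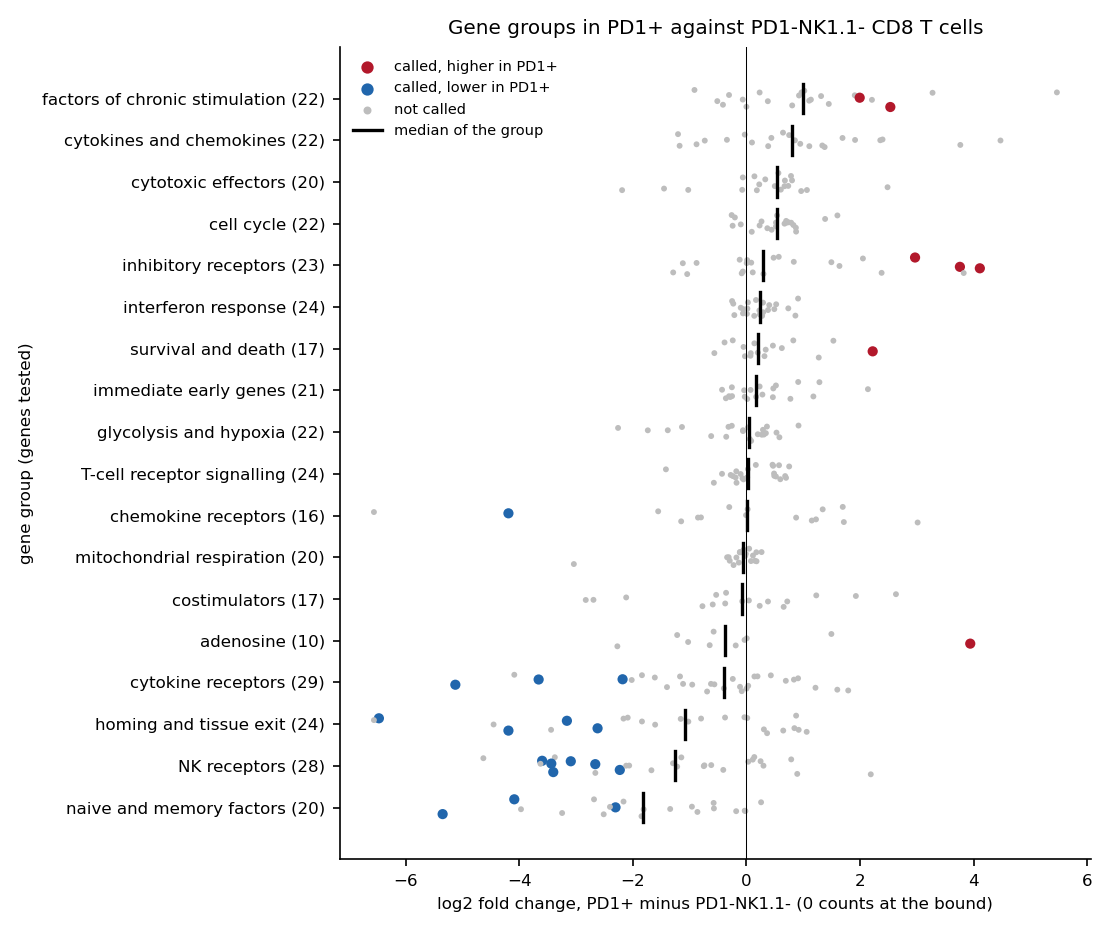
Each row is a gene group with the number of genes tested, and each point a gene at its log2 fold change, PD1+ minus PD1-NK1.1- (x axis; genes with 0 counts in a population at their bound); large red and blue points were called higher and lower, small grey points were not called, and the black bar is the median. The medians run from -1.83 for naive and memory factors to 1.00 for factors of chronic stimulation, and groups of signalling and metabolic genes centre near 0.

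The called genes were also set beside the other populations of the study. They had been selected for a difference between PD1+ and PD1-NK1.1- cells. The same counts over all tested genes were not made, so how unusual those below are is not known. Of the 29 genes higher in PD1+ cells, 12 had both PD1+ libraries above all 20 other libraries, among them Adora3, Coch, Pdcd1, Serpinb6a, Tcrg-C2, Tigit, Tox, Trgv2, Ttn, Gm11802 and the entry without a symbol. Of the 42 lower genes, 17 had both PD1+ libraries below all 20 others, and 10 had both PD1-NK1.1- libraries above all 20 others: Ccr7, Cmah, Fam241a, Gm14085, Igfbp4, Lef1, Ly6c2, Rgs10, S1pr1 and Tcf7. Thus Tcf7 was at 461 CPM or more in PD1-NK1.1- cells, while PD1+ cells, at 147 and 93.7 CPM, lay within the range of the other populations, 32.4 to 149.5 CPM. Il12rb2 in PD1+ cells was below every other library, the lowest of which stood at 24.8 CPM.

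The second set of the study holds TCRb+CD8a+NK1.1- cells, a gate whose name does not mention PD1. Its mean lay between the means of PD1+ and PD1-NK1.1- cells for 23 of the 29 genes called higher and for 34 of the 42 called lower. These genes were selected for a wide gap between PD1+ and PD1-NK1.1- cells, which alone makes a mean in between likely. Without the same count over all tested genes, the counts cannot serve as separate evidence for the calls. In TCRb+CD8a+NK1.1- cells Pdcd1 was at 777 and 609.9 CPM and Tox at 689 and 604 CPM, Tcf7 at 143 and 149.5 CPM and Coch at 39.9 and 33.1 CPM. Havcr2, at 69.5 and 60.5 CPM, and Gzmk, at 493 and 412 CPM, lay between the populations as well. The sets were scaled separately, and no test across them was made.

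**Figure D5:**
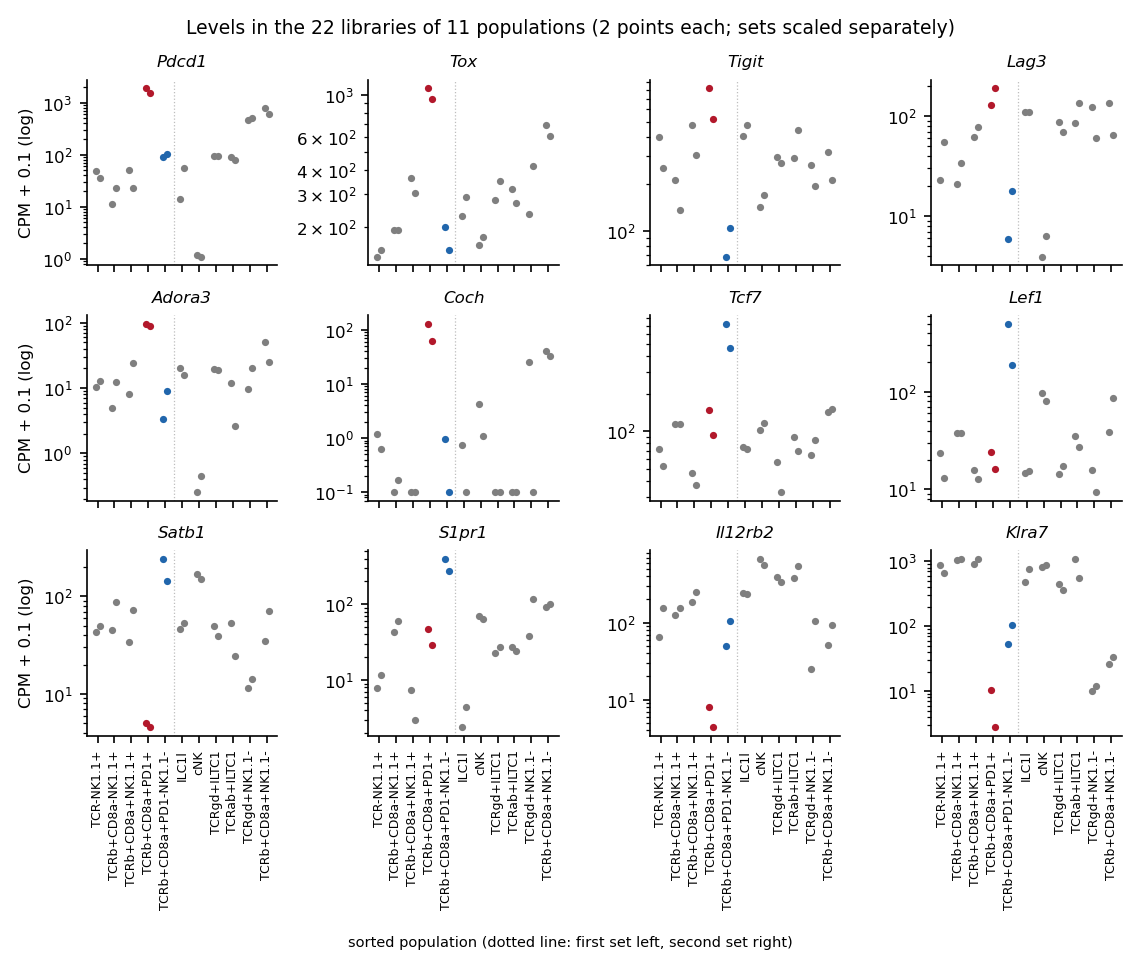
Levels (CPM + 0.1, log axis) of 12 genes in the 22 libraries of 11 sorted populations with 2 points each, PD1+ cells in red, PD1-NK1.1- cells in blue, others in grey, and the second set right of the dotted line. Red points are the highest for Pdcd1, Tox, Tigit, Adora3 and Coch, blue points are the highest for Tcf7, Lef1 and S1pr1, and red points are the lowest for Satb1 and Il12rb2.

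Of the 71 called genes, 10 kept their call in each of the 4 fits that left out a library. They include Tox, Tcrg-C2 and Tcrg-C4 among the higher genes, and Igfbp4, Ddc, Satb1, Tspan9, Klra1 and Klra13-ps among the lower ones. A further 30 kept it in none of these fits, S1pr1, Il4ra, Bhlhe40, Adora3 and Ttn among them. Replicate 1 exceeded replicate 2 of PD1-NK1.1- cells in 24 of the 42 lower genes and in 47.7% of all genes tested. In PD1+ cells, replicate 1 exceeded replicate 2 in 19 of the 29 higher genes and in 49.8% of all genes.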

How the data were processed

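RNA was sequenced from 22 libraries of 11 sorted populations. The authors deposited a table of whole gene counts, made with HTSeq after BWA 0.7.5a and Picard, per the submitters' processing notes, which name the builds mm9 and NCBIM37. How each build was used, how reads were counted and whether strand was used: not given in the sources used here. Of 37620 entries, 32897 (99.0% of counts) were matched to current symbols.

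Tests were run with edgeR 4.0.16 under R 4.3.3 (TMM scaling, filterByExpr with a minimum count of 10, quasi-likelihood F test, 1 mean per population over the 10 first-set libraries, Benjamini-Hochberg adjusted p under 0.05). DESeq2 1.42.0, limma 3.58.1 and other filters and library sets were alternatives. Floors of 3 counts and counting intervals cover counting error only. Tables and figures used Python 3.11.15, pandas 2.3.3 and matplotlib 3.10.9. The test was tested on simulated data. No 2 replicates agreed within sampling noise (chi-square per degree of freedom 31.9 to 178 over the 11 populations), so none was merged.

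Members and lists were chosen with earlier results of these data known. Named are 48 key genes whether called or not, all called genes, in full values the 12 that rose and the 12 that fell most (higher population at 20 CPM or more, libraries not overlapping, predicted genes and receptor segments left out), and list members, called ones first; a few genes that this rule names are not reported here, though counts include them. Sequences are from RefSeq (GRCm38.p6): 18 of 29 genes called higher and 31 of 42 called lower had a window. The windows were searched on both strands for GGAAA and CTTTGAT, which share no match, and also for CACCC and AAAGGTCA, found in 57.5% and 1.51% of all windows. These 2 occurred in 80.8% and 0% of windows of genes called higher and in 79.6% and 5.56% of windows of genes called lower.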

Additional observations from a re-analysis of the deposited data

How the results depend on the processing

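With 2 libraries per population no log2 difference nearer to 0 than 1.56 was called. Size factors of the RLE type gave 74 calls, limma-voom 68, a minimum count of 30 gave 77 and the 4 compared libraries alone 103, holding 71, 49, 71 and 54 of the 71 called genes. DESeq2 gave 366 calls, no filter on low counts 397 (of 23454 genes), the 6 CD8a+ libraries 182 and all 22 libraries 45, holding 71, 71, 70 and 38 of the 71. Leaving out 1 library gave 14 to 30 calls. The cause of these shifts was not tested. The replicate number as a block over the 10 libraries gave 125 calls, all 71 among them. Same-numbered libraries deviated together with a correlation of 0.216 in the compared populations and of 0.0545 to 0.227 over the 10 pairs of first-set populations, over 0.1 in 8 and below it in 2, and the labels do not say what a replicate number marks.

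No called gene changed direction in any of the 13 alternatives. Changes of direction were found in genes near 0. Cd160 went to -0.00465 with the 4 libraries and -0.00365 with the 6. Over the fits without 1 library, Cd160 ran from -0.417 to 0.584, Cd69 from -0.271 to 0.356, Id3 from -0.532 to 0.504, Nr4a1 from -0.273 to 0.997, Tbx21 from -0.0425 to 0.955 and Tnf from -0.184 to 0.130.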

Other observations

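A few single genes of the marker lists follow, chosen after their values were seen. Igkc, an immunoglobulin light chain gene of the B and plasma cell list, was at 69 and 42.6 CPM in PD1+ cells and at 2.97 and 9.29 CPM in PD1-NK1.1- cells, so it ran against the heavy chain gene Ighm. Neither passed the test, and Igkc was called higher with the 6 CD8a+ libraries alone. Kit, a receptor gene of mast cells and progenitors, was at 14.2 and 12.4 CPM against 3.05 and 3.35 CPM, with the mast cell genes Cpa3, Mcpt4, Tpsb2, Tpsab1, Fcer1a and Mcpt8 at 0 counts in all 4 libraries.

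Replicate 2 stood apart from replicate 1 in the same direction on both sides for some genes. The heat shock gene Hspa1a was at 267 and 844 CPM in PD1+ cells and at 95.6 and 554 CPM in PD1-NK1.1- cells, and Uqcrfs1, a subunit gene of respiratory complex III, at 21.7 and 135 CPM against 44 and 154 CPM.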
